A study of Mus musculus with 12 samples.

Results

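The Notch ligands Dll1, Dll4, Jag1 and Jag2, the receptors Notch1, Notch2 and Notch4, and the target genes Hey1, Hey2 and Hes1 were followed across bone marrow and lung libraries from mice with and without acute myeloid leukaemia (AML). These 10 genes were taken by symbol, by a rule that uses none of their values, from the 55291 symbols counted in every library. All 10 were among the 18147 genes that passed the filter on low counts and were tested. Per the labels, VE-cadherin-positive (Vecad+) endothelial cells came from mice of the VECadCre-tdTomato line, in which Cre recombinase is placed under the promoter of VE-cadherin, an endothelial adhesion protein, together with the red reporter tdTomato. All 4 groups carried these alleles. In the leukaemia groups the mice had received transplanted AML cells of the genotype Trp53(R172H/delta), so that the mutation lay in the leukaemic graft, and the control groups were normal mice with no transplant. Each of these groups was represented by 3 RNA-seq libraries from marrow and 3 from lung. The sources used here give neither ages nor times after transplant, and do not say whether the libraries of a group came from separate mice, so p-values measure the spread between these libraries only.

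Notch signalling passes between touching cells. A ligand of the Delta (Dll1, Dll4) or Jagged (Jag1, Jag2) family on the sending cell binds a Notch receptor on its neighbour, the receptor is cut first by an ADAM sheddase and then by gamma-secretase, and the freed intracellular domain joins the DNA-binding protein RBPJ to switch on Hes and Hey genes, which encode transcriptional repressors. In endothelium, Dll4 and Notch1 restrain sprouting, and Dll4 marks arterial and tip cells. Notch4 is largely restricted to endothelial cells, and Jag1 is carried by endothelial, mural and stromal cells. Notch3 is the receptor typical of pericytes and vascular smooth muscle, where Hey2 and Heyl are also found.

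Promoter sequence is shown for Hey2 and Dll4, a target gene and a ligand whose levels moved in opposite directions in marrow with leukaemia. Each is the 250 bases before the RefSeq transcription start on GRCm38.p6, 5′ to 3′ on the gene's own strand. Capitals mark GTGGGAA, a core sequence bound by RBPJ, on either strand in Hey2, and CACNAG, the N box bound by Hes proteins, on either strand in Dll4.
Hey2, chr10:30842784-30843033, minus strand: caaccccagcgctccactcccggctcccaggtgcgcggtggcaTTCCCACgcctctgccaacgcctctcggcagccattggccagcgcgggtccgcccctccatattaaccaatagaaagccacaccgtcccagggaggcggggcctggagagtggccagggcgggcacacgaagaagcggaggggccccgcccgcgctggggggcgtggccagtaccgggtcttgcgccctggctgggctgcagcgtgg
Dll4, chr2:119325534-119325783, plus strand: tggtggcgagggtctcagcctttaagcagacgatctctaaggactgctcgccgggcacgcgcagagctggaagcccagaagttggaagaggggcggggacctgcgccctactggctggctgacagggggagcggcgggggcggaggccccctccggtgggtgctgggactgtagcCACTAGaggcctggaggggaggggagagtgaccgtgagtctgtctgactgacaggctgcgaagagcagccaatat
The capitals in Hey2 begin 207 bases before the start and read as the reverse complement of GTGGGAA, and those in Dll4 begin 75 bases before it. RefSeq entries were matched for 8 of the 10 genes, all but Hes1 and Hey1. Among these 8, GTGGGAA on either strand was found wholly within the window of Hey2 only, against 5.42% of 32851 promoter windows of the same length. The N box was found in Dll4, Notch1 and Notch2, against 36.7% of windows, and the E box CACGTG, another Hes and Hey sequence, is held by 6.02%. A match describes these letters and is not a measured binding site.

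Library totals lay between 12.8 and 39.2 M reads counted. The 20 pan-endothelial marker genes, among them Cdh5 (VE-cadherin) and Pecam1 (CD31), together took 0.0276% to 0.0404% of the counts in marrow controls, and 0.0380% to 0.0441% in marrow AML, while the lung libraries gave 0.396% to 1.34% without leukaemia and 0.0377% to 0.139% with it. Lung control 2 stood apart with the highest of these shares. The 14 lung epithelial markers made up 17.4% ± 1.95 (SD, n = 3) of a lung control library and 21.3% ± 1.10 of a lung AML library, although the labelled cell type was endothelium. In the marrow libraries the same markers took 0.0407% to 0.239% of the counts in controls and 0.0382% to 0.192% in AML. Whether reads of lung origin add to the low counts of Notch genes in marrow was not tested. The 12 pericyte and smooth muscle markers took 0.0198% to 0.0682% in marrow controls and 0.318% to 1.12% in marrow AML, against 0.0853% to 0.202% and 0.0567% to 0.0894% in the lung groups. The 13 erythroid markers analysed went from 2.54% ± 0.106 to 0.285% ± 0.246 of the counts in marrow with leukaemia, where all 13 were called lower, against 23.5% of all genes. No defining marker of endothelium, such as Cdh5, Pecam1 and Kdr, was at 0 in any library. The libraries are bulk RNA, so fewer cells of a type and less RNA per cell cannot be told apart in any level that follows.

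Levels are given as CPM, counts per M of library total, scaled by TMM factors, and a gene was called, and is said to have risen or fallen, at a Benjamini-Hochberg adjusted p under 0.05 over all genes in edgeR's quasi-likelihood test. In marrow with leukaemia 6 of the 10 genes were called, of which 4 rose (Jag1, Hey1, Hey2 and Hes1) and 2 fell (Dll1 and Dll4), where 43.8% of all genes were called, 20.4% higher and 23.5% lower. The members' median log2 fold change was 0.78, and that of all genes tested was -0.11. In lung with leukaemia 2 of 10 were called, both lower (Dll4 and Hey1), where 2.33% of all genes were called, 1.17% higher and 1.16% lower. The median here was -1.40 for the members and 0.00 for all genes. The AML effects differed between marrow and lung for 4 members, Jag1, Hey1, Hey2 and Hes1, each with the higher change in marrow, where 30.7% of all genes were called, 14.6% higher and 16.1% lower. Between the controls, 9 of 10 were lower in marrow than in lung, all but Notch2, where 64.2% of all genes were called, 29.4% higher and 34.7% lower in marrow.

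**Figure D1:**
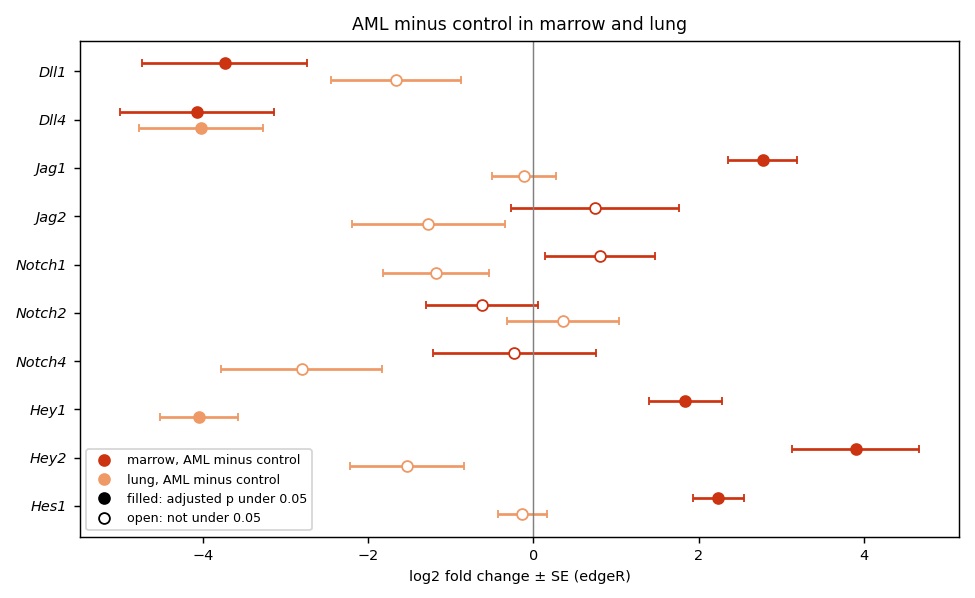
Log2 fold change of AML against control for the 10 Notch genes in marrow and in lung, with bars of 1 standard error of the edgeR fit. Jag1, Hey1, Hey2 and Hes1 lie above 0 in marrow and at or below 0 in lung, while Dll4 lies near -4 in both tissues (-4.07 and -4.02).

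Set against transcript length (CPM per kilobase of exon), Hes1 had the highest group mean of the 10 in every group, at 19.9 ± 7.65 in marrow controls, 94.0 ± 25.5 in marrow AML, 35.4 ± 7.46 in lung controls and 32.3 ± 6.39 in lung AML (SD, n = 3). In lung controls it was followed by Dll4 at 31.5 ± 23.6, Hey1 at 23.3 ± 17.2 and Notch4 at 13.6 ± 9.51 CPM per kilobase. There the ranges overlapped from Hes1 (31.1 to 44.0) to Dll4 (13.9 to 58.3) and Hey1 (12.8 to 43.1), so that their order is not settled. In lung AML the gene after Hes1 was Jag1, at 9.65 ± 1.93. Marrow AML had Jag1 second at 7.78 ± 1.33 and Hey1 next at 4.17 ± 1.06 CPM per kilobase, while Dll1 and Dll4 were lowest at 0.0524 and 0.0553. In marrow controls Notch2 came after Hes1, at 2.32 ± 1.34 CPM per kilobase.

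**Figure D2:**
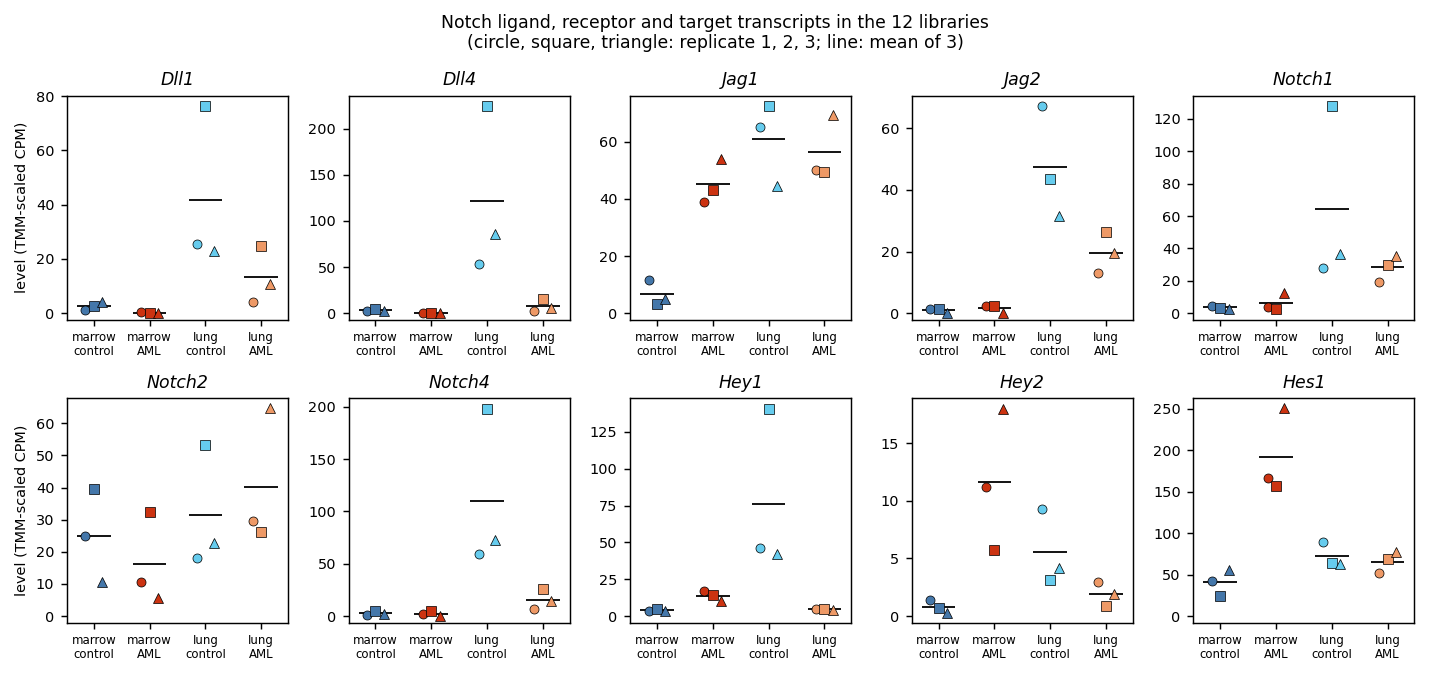
Level of each of the 10 Notch genes in every library (CPM, a linear axis for each gene), in 4 groups of 3 libraries, with the group mean as a line. Dll4 spans from 0.0763 CPM in a marrow AML library to 225 CPM in lung control 2, and the Hes1 libraries of marrow AML, at 157 to 251 CPM, lie above the Hes1 values of all other libraries.

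Dll4, the Delta ligand of arterial and sprouting endothelium (chr2:119325784-119335962, plus strand), fell with leukaemia in both tissues. In marrow it was at 2.23, 4.82 and 2.87 CPM in controls 1 to 3 and at 0.388, 0.0763 and 0.174 CPM in AML 1 to 3, the latter from 6, 2 and 5 reads counted. The groups did not overlap, and the log2 fold change was -4.07 ± 0.94 (SE, adjusted p = 0.00477), a call that limma-voom did not make (adjusted p = 0.305). In lung the control libraries held 53.4, 225 and 86.2 CPM and the AML libraries 2.15, 15.01 and 5.32 CPM, again with no overlap, and control 2 was the highest of all 12. The lung log2 fold change was -4.02 ± 0.75 (adjusted p = 0.0224), a 16.3-fold lower level, which was 9.35-fold without lung control 2 (adjusted p = 0.0913). The call was also lost without lung AML 1 (adjusted p = 0.0818) or lung AML 3 (adjusted p = 0.122), and the fold was 31.4 without lung AML 2. Effects in the tissues differed by -0.05 on the log2 scale (adjusted p = 0.982).

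The endothelial markers moved beside these values. In lung 11 of the 20 pan-endothelial markers fell and none rose, where 1.16% of all genes fell and 1.17% rose. Cdh5 went there from 187.9 ± 142.5 to 15.9 ± 14.4 CPM. That Cdh5 fall was 11.8-fold, 6.79-fold without lung control 2 and 22.8-fold without lung AML 2. Its call was lost with no filter (adjusted p = 0.0882), with the lung libraries alone (0.0556), and without marrow control 3 (0.0510), lung control 2 (0.125), lung control 3 (0.0500003), lung AML 1 (0.0992) or lung AML 3 (0.159). In marrow 7 of 20 fell and 1 rose, where 23.5% of all genes fell and 20.4% rose. The 8 called are near the 43.8% of all genes called there. Cdh5 was at 4.91 ± 1.51 CPM in marrow controls and 0.633 ± 0.290 in marrow AML, a fall not called in limma-voom (adjusted p = 0.508), and the summed share of the endothelial markers was no lower in AML. Their part in the ligand and receptor levels was not tested beyond the ratios to endothelial counts given further on.

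Dll1, the other Delta ligand (chr17:15367354-15376872, minus strand), was at 1.02, 2.51 and 4.31 CPM in marrow controls and 0.517, 0.0763 and 0.0697 CPM in marrow AML, from 8, 2 and 2 reads in the AML libraries. It fell without overlap of the groups, by 3.74 ± 0.9982 on the log2 scale (adjusted p = 0.0107), or 13.3-fold, and 33.2-fold without marrow AML 1. The call was lost in limma-voom (adjusted p = 0.405). In lung its control libraries held 25.6, 76.4 and 22.9 CPM and its AML libraries 4.11, 24.7 and 10.7 CPM. These ranges overlapped, and the log2 fold change of -1.66 ± 0.79 did not pass (adjusted p = 0.328). The difference between the tissues' effects, -2.08 ± 1.24, did not pass either (adjusted p = 0.236). Of the exon bases of Dll1, 20.5% overlap the antisense transcript A930024N18Rik, and since counting ignored the strand, reads from such a pair cannot be told apart.

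Jag1, a Jagged ligand (chr2:137081456-137116644, minus strand), rose in marrow with leukaemia, and its effect there differed from that in lung. Its marrow controls held 11.7, 3.26 and 4.85 CPM and its marrow AML libraries 38.9, 43.2 and 54.0 CPM. Every AML library lay above every control, with a log2 fold change of 2.78 ± 0.42 (adjusted p = 0.000393), or 6.86-fold, and 11.2-fold without marrow control 1. In lung the control values of 65.2, 72.6 and 44.5 CPM and the AML values of 50.2, 49.3 and 69.2 CPM overlapped (log2 fold change -0.11 ± 0.38, adjusted p = 0.956). The AML effects differed by 2.89 ± 0.56 (adjusted p = 0.00312), a 7.42-fold contrast that was 12.1-fold without marrow control 1. Jag2 (chr12:112907819-112929776, minus strand), a Jagged ligand from a separate gene, had 1.40, 1.41 and 0 CPM in marrow controls and 2.33, 2.48 and 0.0697 CPM in marrow AML, with no call (log2 fold change 0.75 ± 1.02, adjusted p = 0.582). Its lung controls, at 67.2, 43.5 and 31.5 CPM, lay above the lung AML libraries at 13.1, 26.3 and 19.5 CPM, yet the log2 fold change of -1.27 ± 0.92 did not pass (adjusted p = 0.597).

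None of the 3 receptors was called for leukaemia in either tissue by edgeR. Notch4, the endothelial receptor (chr17:34564268-34588503, plus strand), held 59.1, 198 and 72.7 CPM in lung controls and 6.85, 26.0 and 14.4 CPM in lung AML. These groups did not overlap, but the log2 fold change of -2.81 ± 0.97 did not pass (adjusted p = 0.167). The gene was called lower in lung by DESeq2 (adjusted p = 0.0362), by limma-voom (adjusted p = 0.00315) and by edgeR fitted on the 6 lung libraries alone (adjusted p = 0.0448). In marrow Notch4 stood at 1.44, 5.07 and 1.62 CPM in controls and 1.62, 5.23 and 0.0697 CPM in AML, with overlap and no call (-0.23 ± 0.99, adjusted p = 0.881). The difference between effects was 2.58 ± 1.36 (adjusted p = 0.179), and passed without marrow AML 3 (adjusted p = 0.0365).

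Notch1, the receptor of Dll4 in vessel sprouting (chr2:26457903-26516663, minus strand), was at 4.70, 3.41 and 2.57 CPM in marrow controls and 3.56, 2.71 and 12.4 CPM in marrow AML. It was at 28.2, 128 and 36.4 CPM in lung controls and 19.6, 30.1 and 35.4 CPM in lung AML. Both pairs of groups overlapped, with log2 fold changes of 0.81 ± 0.66 in marrow (adjusted p = 0.346) and -1.18 ± 0.64 in lung (adjusted p = 0.415). Notch2 (chr3:98013527-98150361, plus strand), a receptor found in many cell types, was the most even of the 10 over the 4 groups. Its marrow values were 24.8, 39.5 and 10.7 CPM in controls and 10.6, 32.4 and 5.68 CPM in AML, and its lung values 17.9, 53.3 and 22.7 CPM in controls and 29.6, 26.3 and 64.8 CPM in AML. All its neighbouring groups overlapped, and the log2 fold changes were -0.62 ± 0.68 in marrow (adjusted p = 0.487) and 0.36 ± 0.68 in lung (adjusted p = 0.906).

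All 3 target genes rose in marrow with leukaemia, and all 3 differed in their AML effect between the tissues. Hes1, the Hes family repressor (chr16:30064384-30067796, plus strand), was at 41.8, 24.4 and 55.5 CPM in marrow controls and 167, 157 and 251 CPM in marrow AML. The groups lay far apart, with a log2 fold change of 2.24 ± 0.31 (adjusted p = 0.000269). In lung, controls at 89.7, 63.5 and 63.3 CPM and AML libraries at 51.6, 68.4 and 77.2 CPM overlapped (-0.14 ± 0.30, adjusted p = 0.925). The difference of the effects was 2.38 ± 0.43 (adjusted p = 0.00215).

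Hey1 (chr3:8663359-8667256, minus strand), a repressor induced by Notch in arterial endothelium, changed in opposite directions in the tissues. Its marrow controls held 3.63, 4.52 and 3.23 CPM and its marrow AML libraries 16.7, 14.3 and 9.86 CPM, a rise without overlap of 1.84 ± 0.44 on the log2 scale (adjusted p = 0.00611) that did not pass in limma-voom (adjusted p = 0.141). In lung it went from 45.9, 141 and 41.9 CPM in controls to 4.97, 5.05 and 3.78 CPM in AML, with every AML library below every control. The lung log2 fold change was -4.05 ± 0.48 (adjusted p = 0.00262), or 16.5-fold lower, and 9.53-fold without lung control 2, with the call kept without any single library. The effects differed by 5.89 ± 0.65 (adjusted p = 0.000201), a 59.3-fold contrast that was 34.3-fold without lung control 2.

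Hey2 (chr10:30832359-30842801, minus strand), the Hey repressor also found in smooth muscle, was at 1.35, 0.653 and 0.299 CPM in marrow controls and 11.2, 5.76 and 18.0 CPM in marrow AML. It rose without overlap by 3.91 ± 0.77 on the log2 scale (adjusted p = 0.00195), or 14.99-fold, and 24.1-fold without marrow control 1. Lung controls at 9.30, 3.15 and 4.18 CPM lay above lung AML libraries at 2.95, 0.855 and 1.91 CPM, but the log2 fold change of -1.53 ± 0.69 did not pass (adjusted p = 0.301). The effects differed by 5.44 ± 1.03 (adjusted p = 0.00278), a 43.3-fold contrast, or 69.5-fold without marrow control 1.

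Markers of other cell types moved beside Jag1 and the targets in marrow, where 20.4% of all genes rose and 23.5% fell. Of the 12 pericyte and smooth muscle markers 10 rose and none fell, and the pericyte marker Rgs5 went from 38.5 ± 24.4 to 411 ± 148 CPM (SD, n = 3). In lung none of these 12 was called in either direction, where 2.33% of all genes were called. Of 12 marrow stroma and bone markers 4 rose and 4 fell. The stromal genes Lepr, at 122.96 ± 27.9 and 400 ± 62.3 CPM, and Kitl, at 22.3 ± 6.69 and 111 ± 23.4 CPM in marrow controls and AML, were higher in AML. Col1a1, at 6793 ± 799 and 546 ± 419 CPM, and Bglap, at 994 ± 504 and 112 ± 133 CPM, were lower in AML. The summed share of these 12 markers was 1.46% to 2.11% of the counts in controls and 1.44% to 2.76% in AML. Of 15 leukocyte markers 7 rose and 2 fell, at 0.0156% to 0.0337% of the counts in controls and 0.0226% to 0.0308% in AML. The part of these cells in the rise of Jag1, Hey1, Hey2 and Hes1 was not tested. Across the 12 libraries the level of Hey2 followed that of Notch3 with Pearson r = 0.910 on log2 CPM, where r with Notch3 was 0.841 for Hes1, 0.451 for Jag1 and 0.436 for Hey1. Dll4 followed Cdh5 with r = 0.980. These are descriptions of points that share 4 groups.

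**Figure D3:**
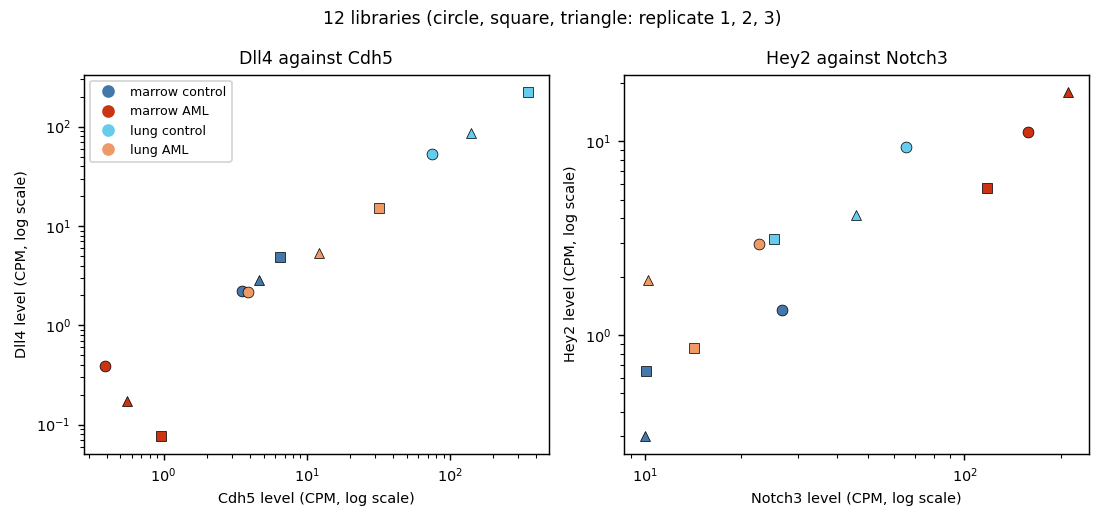
Level (CPM, log axes) of Dll4 against Cdh5 and of Hey2 against Notch3 in the 12 libraries, coloured by group, with r taken on log2 CPM. Dll4 and Cdh5 are both highest in lung controls (r = 0.980), and Hey2 and Notch3 are high together in marrow AML (r = 0.910).

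Between controls, the question was how marrow and lung differed without leukaemia. The 9 genes lower in marrow had log2 differences, marrow minus lung, from -5.63 ± 1.14 for Jag2 (adjusted p = 0.00122) to -0.83 ± 0.30 for Hes1 (adjusted p = 0.0309). Dll4, at 3.31 ± 1.35 CPM in marrow and 121 ± 90.8 in lung, differed by -5.20 ± 0.80 (adjusted p = 0.000190). Notch4 and Hey1 differed by -5.34 ± 1.11 (adjusted p = 0.00145) and -4.33 ± 0.48 (adjusted p = 1.81e-05). Dll1, Notch1, Jag1 and Hey2 differed by -4.00 ± 0.88, -4.17 ± 0.73, -3.20 ± 0.42 and -2.83 ± 0.74, also lower in marrow. Without lung control 2 the folds shrank, from 36.6 to 21.4 for Dll4, 40.4 to 24.6 for Notch4, 18.0 to 9.17 for Notch1, 15.98 to 9.43 for Dll1 and 20.1 to 11.7 for Hey1, with each call kept. Without marrow control 1 those of Jag1 and Hey2 grew from 9.19 to 15.2 and from 7.12 to 11.6, and without marrow control 2 that of Notch4 grew to 72.4. The Hes1 call was lost without marrow control 1 (adjusted p = 0.0610), marrow control 2 (adjusted p = 0.0993), lung control 1 (adjusted p = 0.0906) or lung AML 2 (adjusted p = 0.0521). Notch2 differed by -0.33 ± 0.68 (adjusted p = 0.691). Beside these genes, 19 of the 20 pan-endothelial markers were lower in marrow, where 34.7% of all genes were lower, and values set against endothelial counts are given next.

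As the endothelial share of the counts differed between groups, each gene's counts were also taken as a percentage of the summed counts of the 20 pan-endothelial markers. In lung, Dll4 was 1.46% ± 0.160 of that sum in controls and 0.738% ± 0.203 in AML (SD, n = 3), without overlap, a log2 ratio of -1.02 in place of -4.02. Hey1 stood at 0.945% ± 0.200 and 0.689% ± 0.472, and its groups now overlapped. Notch4 was at 1.36% ± 0.0974 in controls and 1.77% ± 0.222 in AML, with AML the higher and no overlap, and the overlap returned when Cdh5 and Pecam1 alone formed the sum. Jag1 moved from 0.953% to 8.38%, Hes1 from 1.24% to 9.26%, Notch2 from 0.402% to 6.01% and Notch1 from 0.741% to 3.89%, each without overlap. The marker sum itself was smaller with leukaemia, at a mean of 0.0806% of a lung AML library against 0.762% of a lung control library. On CPM the lung log2 fold changes of Jag1, Hes1 and Notch2 were -0.11, -0.14 and 0.36. Their higher percentages thus follow from the smaller sum, and levels per endothelial cell were not tested. As a percentage Dll1 went the opposite way to Dll4, from 0.519% to 1.35%, and Jag2 from 0.825% to 2.53%, both higher in AML without overlap, though Jag2 overlapped with Cdh5 and Pecam1 alone as the sum. On CPM the lung log2 fold changes of Dll1, Jag2, Notch1 and Notch4 were -1.66, -1.27, -1.18 and -2.81, with no call by edgeR. Their counts thus fell less than the marker sum. Dll4 was the only member lower in every lung AML library than in every lung control on the percentage scale. With 3 against 3 libraries an exact permutation test cannot go below 0.10, so these ratios carry no test. In marrow the same percentage for Dll4 was 0.883% ± 0.236 in controls and 0.0637% ± 0.0483 in AML, for Jag1 2.05% and 13.4%, and for Hes1 11.4% and 57.0%. Against Cdh5 and Pecam1 alone, Dll4 had 6, 2 and 5 counts to 17, 88 and 241 in marrow AML 1 to 3. Marrow controls 1 to 3 had 48, 96 and 48 to 257, 424 and 240, so that the Dll4 groups overlapped on that sum. Between controls the mean percentages of the 20-marker sum for Dll4 (0.883% against 1.46%) and Notch4 (0.706% against 1.36%) were lower in marrow than in lung, without overlap. Jag2 was also lower there (0.278% against 0.825%), with overlap. The remaining members had higher means in marrow, and Hes1 (11.4% against 1.24%) and Notch2 (6.96% against 0.402%) did so without overlap. Here too the marker sum was the smaller in marrow, at a mean of 0.0357% of a control library against 0.762% in lung. The groups of Dll1, Jag1, Notch1, Hey1 and Hey2 overlapped. With Cdh5 and Pecam1 alone as the sum, the order of Dll4 and Notch4 between controls did not hold. Lung controls 1 to 3 had 1229, 5850 and 2332 Dll4 counts to 7481, 32231 and 12589, so that Dll4 was higher in marrow, without overlap. Notch4, at 31, 101 and 27 counts in marrow controls and 1360, 5161 and 1965 in lung controls, overlapped.

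**Figure D4:**
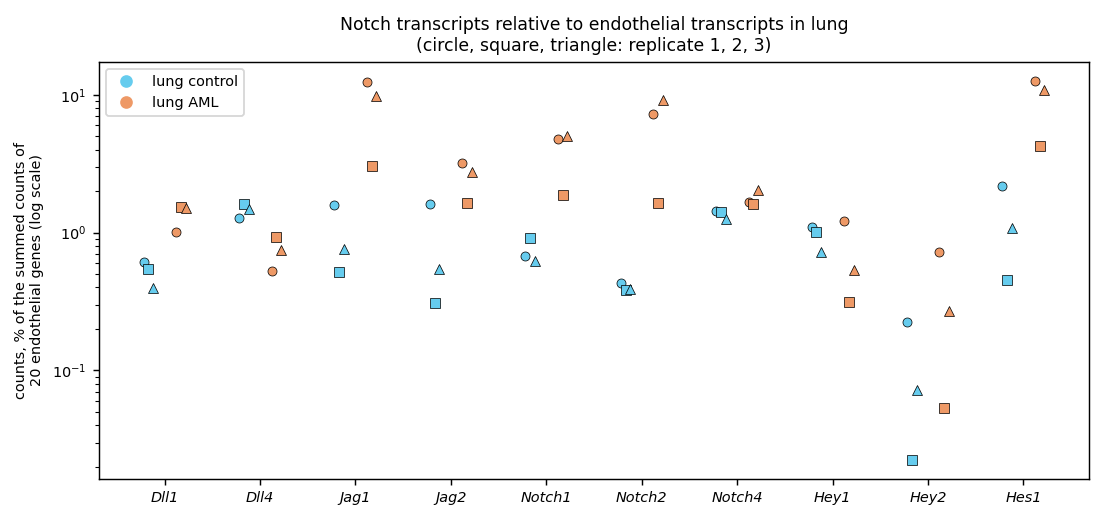
Each Notch gene's counts as a percentage of the summed counts of 20 pan-endothelial markers in the 6 lung libraries (log axis), with 1 point per library. Dll4 lies lower in lung AML (mean 0.738% against 1.46%), Hey1 overlaps, and Jag1, Notch2 and Hes1 lie higher in AML, where the marker sum itself is smaller.

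A further 64 genes of the pathway were listed by role, and 59 were tested. In marrow with leukaemia 18 rose and 16 fell, where 20.4% of all genes rose and 23.5% fell, with a median log2 fold change of 0.00. In lung none rose and 3 fell, with a median of -0.09, where 2.33% of all genes were called. The AML effects differed for 27, 15 of them with the higher change in marrow, where 30.7% of all genes differed. Among the remaining ligands and receptors, Notch3 rose in marrow from 26.7, 10.04 and 9.99 CPM to 158, 118 and 211 CPM, by 3.38 ± 0.50 on the log2 scale (adjusted p = 0.000378), or 10.4-fold, and 16.2-fold without marrow control 1. In lung Notch3 was at 65.4, 25.3 and 45.7 CPM in controls and 22.6, 14.2 and 10.2 CPM in AML, without overlap but with no call (adjusted p = 0.118), and it was called lower by DESeq2 (adjusted p = 0.0231) and limma-voom (adjusted p = 0.0212). Dner, a non-classical ligand, fell in marrow to 2 reads over the AML group from 37 (ratio 22.4, 95% counting interval 5.78 to 192).

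Of the 10 further target genes tested, 5 rose and 2 fell in marrow. Of all genes 20.4% rose there and 23.5% fell, and the 2 that fell are near the latter share. Heyl, the third Hey family member, rose from 22.8 ± 2.70 to 191 ± 36.4 CPM (SD, n = 3), by 3.07 ± 0.38 on the log2 scale (adjusted p = 0.000145). Gja4, the arterial gap junction protein connexin 37, rose in marrow by 3.80 ± 0.45 (adjusted p = 9.72e-05) and fell in lung by 2.35 ± 0.42 (adjusted p = 0.0180). Also lower in lung were Sox17, an arterial transcription factor (-2.62 ± 0.58, adjusted p = 0.0412), and Lfng, a Fringe enzyme that adds sugar to Notch receptors (-2.16 ± 0.44, adjusted p = 0.0320). Each of these 3 lung calls was lost without lung control 2, where the adjusted p was 0.0665 for Gja4, 0.167 for Sox17 and 0.131 for Lfng. The Gja4 call was also lost without lung AML 1 or 3, that of Lfng without lung control 1, marrow control 1 or any lung AML library, and that of Sox17 without any library of the controls or without lung AML 1 or 3. Without lung AML 2 the Sox17 value was -3.25.

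Counts of called genes by role in marrow with leukaemia are to be read against the 43.8% of all genes called there, 20.4% higher and 23.5% lower, and with 3 to 10 genes a role none is shown to stand apart. Gamma-secretase, the protease that frees the Notch intracellular domain, had 4 of 7 genes higher and none lower, among them Aph1b (1.30 ± 0.31, adjusted p = 0.00563) and Psen2 (0.9998 ± 0.2249, adjusted p = 0.00417). Of 3 sheddase and furin genes 1 fell, Adam10, which makes the first cut (-1.92 ± 0.25, adjusted p = 0.000198). Of 6 glycosyltransferases 1 rose, Poglut1 (1.39 ± 0.19, adjusted p = 0.000230), and 3 fell, among them Mfng, at 3 reads over the AML group against 178 (ratio 71.8, interval 24.2 to 352). Of 5 ubiquitin ligases that act on ligands, 3 rose, among them Mib2 (1.54 ± 0.22, adjusted p = 0.000329), and 1 fell, Neurl1a, with 1 read over the AML group against 72 (ratio 87.2, interval 15.2 to 3490). The intervals cover counting error only. Dner, Mfng and Neurl1a were not called in limma-voom (adjusted p = 0.0662, 0.0656 and 0.0790), and their fitted log2 values of -4.16, -5.93 and -6.00 were -4.75, -7.02 and -8.00 without marrow AML 1. They were smaller for Dner without marrow control 1 (-3.48), for Mfng without marrow AML 3 (-5.26), and for Neurl1a without marrow control 3 (-5.25) or marrow AML 3 (-5.42).

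In the nucleus, the 7 genes of the activating complex gave 1 higher and 2 lower in marrow AML, close to the 43.8% of all genes called. Among them were Kat2b, an acetyltransferase, at -1.44 ± 0.25 (adjusted p = 0.000919) and Snw1 at -0.82 ± 0.14 (adjusted p = 0.000899). Of 8 corepressor genes 1 rose, Tle1, a Groucho family partner of Hes proteins (2.70 ± 0.24, adjusted p = 2.28e-05). The other 3 called among them fell, so that 4 of 8 were called, also near that share, with Ctbp1 at -1.59 ± 0.16 (adjusted p = 4.06e-05). Of 9 inhibitors and turnover genes 2 rose and 3 fell, with Dtx4, a Deltex family ubiquitin ligase, at 2.26 ± 0.49 (adjusted p = 0.00351) or 1.64 without marrow AML 2 and Ccnc, cyclin C, at -1.05 ± 0.21 (adjusted p = 0.00200). Between controls, 8 of the 59 were higher and 32 lower in marrow, where 29.4% of all genes were higher and 34.7% lower. Adam10, for one, was higher there by 1.44 ± 0.25 (adjusted p = 0.000436), Sox17 lower at -5.08 ± 0.65 (adjusted p = 5.02e-05), and Dll3 had no read in marrow, at least 10.9-fold lower than in lung taking a floor of 3 counts for the marrow libraries together.

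**Figure D5:**
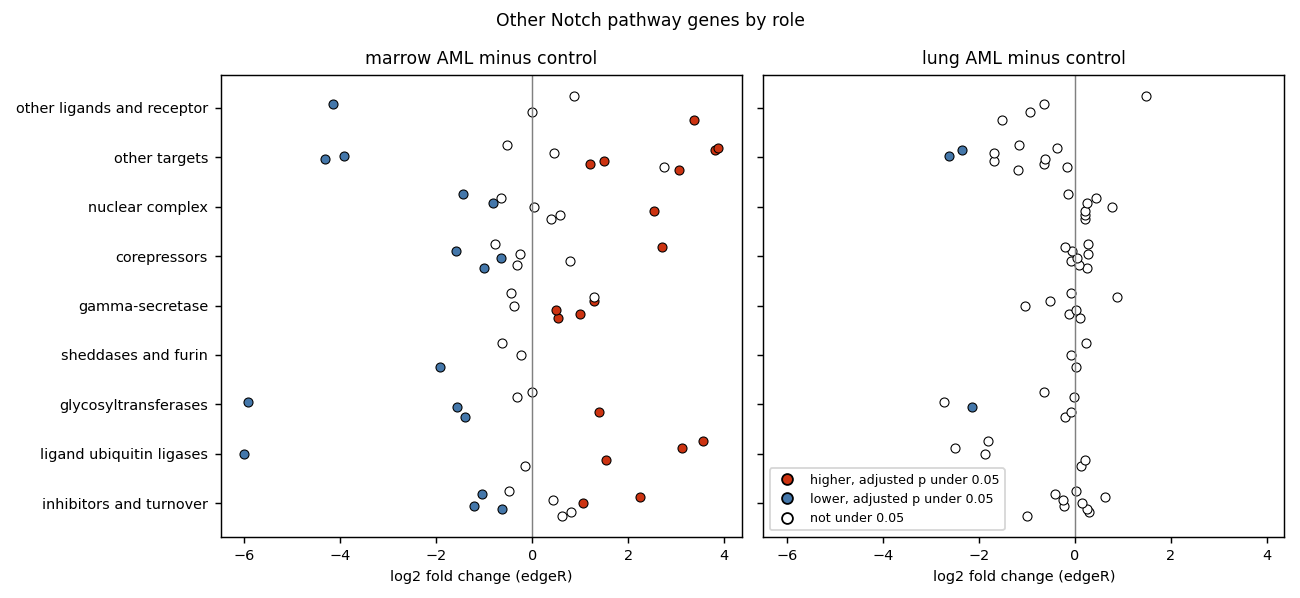
Log2 fold change of AML against control, in marrow and in lung, for the 59 further Notch pathway genes tested, with called genes coloured. Gja4, Notch3 and Heyl lie to the right, at 3.80, 3.38 and 3.07 in marrow, while in lung only Gja4, Sox17 and Lfng were called.

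The genes most like each member over the 12 libraries were named by Pearson r on log2 CPM among 10050 genes whose mean reached 10 CPM. They were Rasgrp3 and Wscd1 for Dll4 (r = 0.988 and 0.986), Rasip1 and Ccdc85a for Dll1 (0.987 and 0.982), Calcrl and Tspan18 for Notch4 (0.981 and 0.965), and Ptprg and Prickle2 for Notch1 (0.984 and 0.983). Fzd4 and Adgre5 were most like Hey1 (both 0.943), and Rgs7bp and Kcnmb1 most like Hey2 (0.951 and 0.943). Wfs1 and Msrb3 led for Jag1 (0.983 and 0.980), Drc3 and Adi1 for Jag2 (both 0.965), Plekhg3 and Smarcd3 for Hes1 (0.971 and 0.959), and Zfp384 and Furin for Notch2 (0.946 and 0.919). The points share 4 groups and their libraries, so these values carry no p.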

How the data were processed

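RNA was measured in 12 libraries, 3 in each of 4 groups taken from the titles. Per the labels' protocols, total RNA was extracted with RNeasy Plus Micro and libraries with SMART-seq v4 low-input and ThruPLEX kits. Per the submitters' processing notes, bcl2fastq, STAR and the mm10 build were used, and the sources used here name no versions, counter or annotation. The authors deposited raw counts per gene symbol, unstranded per the file names and not normalised.

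The tests used edgeR 4.0.16 under R 4.3.3, with filterByExpr by group (minimum count 10, minimum total 15), TMM factors (0.865 to 1.25), and robust quasi-likelihood F tests on 1 model of all 12 libraries with 8 residual degrees of freedom. The contrasts were AML against control in each tissue, the difference of these effects, and marrow against lung control. SEs are the log2 fold change divided by the square root of F. Alternatives used limma 3.58.1, DESeq2 1.42.0, other scalings, filters, replicate blocks and left-out libraries. The code was tested on simulated counts. Positions are GENCODE's on GRCm38, and promoters RefSeq's. The rule for the members names genes and no values, but members and lists were chosen with earlier results of these data known. Named pathway genes were, in each comparison, up to 2 called genes with the smallest p in each role, of which some are printed. Likeness, on log2 CPM with a prior count of 2, passed over predicted genes and other members.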

Additional observations from a re-analysis of the deposited data

Results flagged for a closer look

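The AML effect differed between marrow and lung in the edgeR test of that difference (adjusted p under 0.05 over all genes) for 4 of the 10 members and 27 of the 59 further pathway genes tested. Values are given, as marrow minus lung on the log2 scale, for the 21 of these that the naming rule takes. The members were Hey1 at 5.89, Hey2 at 5.44, Jag1 at 2.89 and Hes1 at 2.38.

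Of the further genes, Gja4 (6.16), Neurl1b (5.62), Neurl3 (5.36), Notch3 (4.91), Heyl (4.25), Tle1 (2.91), Aph1b (1.82), Numb (1.62), Poglut1 (1.48) and Psen2 (1.12) had the higher change in marrow. Dner (-3.51), Mfng (-3.21), Adam10 (-1.93), Ctbp1 (-1.52), Kat2b (-1.29), Snw1 (-1.07) and Itch (-0.89) had the lower change in marrow. The differences of Dner and Mfng did not pass in limma-voom (adjusted p = 0.148 and 0.405) or when library totals alone were used for scaling (0.0721 and 0.0783), and were each lost in at least 9 of the 12 fits that left out 1 library. With library totals Itch (adjusted p = 0.0988) and Kat2b (0.0696) did not pass either, and Kat2b also not without lung AML 1 (0.0503). Without marrow control 1 the Notch3 contrast was 47.0-fold in place of 30.1-fold. The Neurl3 contrast of 41.1-fold was 69.4-fold without marrow control 2, 26.5-fold without marrow AML 2 and 25.8-fold without lung control 2. With 3 libraries a group, no library was tested as an outlier.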

How the results depend on the processing

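The count of members called in each of the 4 comparisons was the same under DESeq2's size factors, library totals, no filter and a filter of 5 CPM. In limma-voom 3 members were called in marrow in place of 6, all higher, and Dll1 (adjusted p = 0.405), Dll4 (0.305) and Hey1 (0.141) were lost. The count over all genes in lung was 423, against 1632 by DESeq2's Wald test, 2282 by limma-voom and 1239 with the 6 lung libraries alone. Leaving out each library in turn gave 6 to 6 members in marrow, 1 to 2 in lung, 4 to 5 in the difference and 8 to 9 between controls. The counts over all genes ran from 6418 to 8589 in marrow, 72 to 761 in lung, 4181 to 6417 in the difference and 10374 to 12802 between controls. Median shifts over all genes in marrow were -0.11 with TMM, -0.06 with DESeq2 factors and 0.16 with library totals.

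Directions that turned were all of values that had no call. Notch4 in marrow was 0.14 with library totals and 0.015 with the 5 CPM filter. The difference of the Dll4 effects was 0.0079 with DESeq2 factors, 0.38 with library totals, 0.034 by Wald, 0.17 by limma-voom, 0.0053 unfiltered and 0.16 with 5 CPM. With each library left out in turn, the log2 values ran from -0.20 to 1.17 for Notch1 and -1.86 to 0.60 for Notch4 in marrow. In lung they ran from -0.29 to 0.038 for Jag1, -0.17 to 0.98 for Notch2 and -0.27 to 0.035 for Hes1. They ran from -0.82 to 1.10 for the Dll4 difference, -0.14 to 1.80 for the Cdh5 difference, and -0.83 to 0.28 for Notch2 between controls. The cause was not tested.

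Same-numbered samples deviated together at most weakly. The 18 same-numbered pairs had correlations of deviations from -0.162 to 0.183, and in each pair of groups 2 or 3 of 6 samples correlated best with their own number. With 3 libraries a group, this cannot decide whether same-numbered libraries came from the same mouse. With the replicate block 6, 2, 4 and 9 members were called in the 4 comparisons, as without it, and the Dll4 difference was 0.077, or 0.071 with the block within condition. Lfng in lung lost its call with the block (adjusted p = 0.0594). Dll1 and Dll4 in marrow AML rest on 12 and 13 reads in all, which limits those folds.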
